A study of Mus musculus with 18 samples.

Results

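The 5 actin genes examined here were 3 muscle actins, Acta2, Actg2 and Actc1, and 2 cytoplasmic actins, Actb and Actg1. They were taken by symbol from a count table of 35655 genes, in which each of them had 1 row. The table holds 18 libraries of carotid artery tissue from male WT C57/BL6 mice on normal chow, in which the left carotid was injured with a wire at 11 weeks of age. The groups were day 0, labelled pre-injury (4 libraries), and days 7 (4), 14 (3), 21 (4) and 28 (3) after injury, without further genotype or treatment. Tissue containing the outer elastic lamina and, after injury, the neointima (the new inner layer that narrows the vessel) was cut out by laser from many sections, and the RNA was sequenced by MACE, which counts 3′ ends of transcripts. The samples are described as pooled, without the number of animals per library, and the labels do not say that libraries came from separate mice, so p-values measure the spread between these libraries. The right carotid of injured mice was the study's control vessel, and the descriptions of 3 day 0 libraries (replicates 2, 3 and 4) carry the same numbers as those of 3 day 21 libraries (replicates 1, 3 and 4). The labels call day 0 pre-injury and do not say which vessel it was.

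Actin is the protein of the thin filament. Acta2 encodes smooth muscle alpha-actin, the actin that contracts the wall of arteries, and Actg2 encodes smooth muscle gamma-actin, which is best known from the gut and bladder. Actc1 encodes the alpha-actin of heart muscle, which other muscle also uses during development. Actb and Actg1 encode beta-actin and gamma-actin, which build the cytoskeleton of nearly every cell type and drive shape change and migration. Muscle actin genes are classical targets of serum response factor (SRF), which binds a short DNA element named the CArG box, and of its cofactors of the myocardin family. Smooth muscle cells that leave the contractile state are known for losing alpha-actin.

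The promoter stretches that carry such elements are shown because they are the best known control sequence that actin genes share. A table of RefSeq promoters on GRCm38.p6 held 3 of the 5 actins, Acta2, Actc1 and Actg1. The 250 bases before each start were searched on both strands for the CArG box and for a box with 1 of its middle letters replaced by C or G, and matches are in capitals. All 3 genes lie on the minus strand, and the sequences are written 5′ to 3′ along the gene.
Acta2, chr19:34255388-34255467: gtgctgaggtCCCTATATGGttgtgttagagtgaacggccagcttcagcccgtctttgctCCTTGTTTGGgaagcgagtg
Actc1, chr2:114052903-114053060: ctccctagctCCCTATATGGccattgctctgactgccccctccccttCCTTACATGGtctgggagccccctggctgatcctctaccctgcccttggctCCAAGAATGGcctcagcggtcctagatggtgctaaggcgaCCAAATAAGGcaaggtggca
Actg1, chr11:120348566-120348595: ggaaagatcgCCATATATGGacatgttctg
Acta2 held 2 boxes with a replaced letter, beginning 84 and 34 bases before the start. Actc1 held 3 of these, at 175, 138 and 87 bases, and 1 full box at 47 bases. Its box farthest from the start, CCCTATATGG, has the same 10 letters as the outer box of Acta2. Actg1 held 1 full box at 90 bases. Of 32851 promoters in the table, 1.467% held a full box, 8.593% held either kind and 0.6697% held 2 or more. A match describes letters in this window and is not a measured binding site.

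Totals ran from 440675 to 878310 counts per library. Of the genes in the table, 10312 passed the filter on low counts and were tested, and these included 4 of the 5 actins. Actc1 did not pass. Levels are given as CPM, counts scaled to the same normalised total over the tested genes in each library. Since MACE counts 1 end per transcript molecule, the counts were not divided by transcript length, and actins are set against each other on that scale. A gene was called changed at an adjusted p under 0.05 in edgeR's quasi-likelihood test over all genes tested.

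On day 0 Acta2 was the gene with the highest mean CPM of all genes tested. Its level was 16631, 14632, 16217 and 17968 CPM in the 4 libraries. On day 7 it was 1549, 894.9, 1009 and 2694 CPM, so that no library came near the day 0 range. Acta2 thereby dropped from rank 1 to rank 89 among the genes tested. The log2 fold change was -3.41 (standard error 0.37, adjusted p = 4.37e-07 by edgeR), which is 10.6-fold lower. In bulk tissue such as this, fewer smooth muscle cells and less Acta2 RNA in each cell cannot be told apart.

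Acta2 was higher again on the later days but stayed below day 0. On day 14 it stood at 10673, 3874 and 4227 CPM, and replicate 1 was well above the other 2 libraries. The 4 libraries of day 21 had 6552, 4226, 11595 and 7944 CPM. Those of day 28 had 12633, 8650 and 7552 CPM, a mean of 9611 ± 2674 (SD, n = 3), which was 58.7% of the day 0 mean. No library of any later day reached the lowest day 0 library, and no library of days 14, 21 or 28 fell as low as the highest of day 7. Here and below, the share of all tested genes that separate in this way is not given.

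Against day 0, the log2 fold change of Acta2 was -1.39 on day 14 (standard error 0.37, adjusted p = 0.0236 by edgeR) and -1.11 on day 21 (standard error 0.34, adjusted p = 0.0385 by edgeR), both called lower. On day 28 it was -0.77 (standard error 0.37, 95% interval -1.52 to -0.02, adjusted p = 0.327 by edgeR) and was not called. The rise from day 7 was itself called on each later day. It was 2.03 on the log2 scale to day 14 (adjusted p = 0.00411 by edgeR), 2.30 to day 21 (adjusted p = 0.000188) and 2.64 to day 28 (adjusted p = 4.93e-05). All comparisons with day 0 share its 4 libraries, and all comparisons with day 7 share those of day 7.

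The smaller differences of Acta2 depended on single libraries. The day 14 call was lost without day 0 replicate 4 (adjusted p = 0.051 by edgeR), day 14 replicate 2 (adjusted p = 0.181) or day 14 replicate 3 (adjusted p = 0.133). Without day 14 replicate 1 the fall on day 14 was deeper, at -2.01 on the log2 scale, and the rise from day 7 was 1.42 (adjusted p = 0.0758). The day 21 call was lost in 7 of the 18 fits that left out 1 library each, with an adjusted p of up to 0.117. It was kept in a fit of days 0 and 21 alone with the number in the description as a block (-0.93, adjusted p = 0.00174 by edgeR). In that fit the difference rests on the 3 pairs of libraries that share a number.

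Actg2, the smooth muscle gamma-actin, fell with Acta2 on day 7, at a level far below it. It had 617.9, 997, 697.6 and 742.8 CPM on day 0. On day 7 it had 112.2, 35.94, 87.71 and 96.86 CPM, which rested on 20 to 63 counts per library. The 2 days did not overlap, and the log2 fold change was -3.20 (standard error 0.44, adjusted p = 9.13e-06 by edgeR), or 9.16-fold lower.

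On day 14 Actg2 stood at 551.9, 280.6 and 95.25 CPM, so the lowest library lay inside the range of day 7. On day 21 it stood at 172.7, 205.9, 473.6 and 244.3 CPM, and on day 28 at 384.9, 167 and 265.3 CPM. Every library of these 3 days was below every library of day 0. Its mean on day 28 was 35.7% of the day 0 mean.

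Actg2 was called lower on day 21, by -1.48 on the log2 scale with a standard error of 0.40 (adjusted p = 0.0211 by edgeR). It was not called on day 14 (-1.31, adjusted p = 0.0833 by edgeR) or day 28 (-1.49, 95% interval -2.40 to -0.57, adjusted p = 0.101 by edgeR), where DESeq2 gave adjusted p of 0.0407 and 0.0365. It was called on day 14 without day 14 replicate 1 (-2.03, adjusted p = 0.00759 by edgeR) and on day 28 without day 28 replicate 1 (-1.81, adjusted p = 0.0455). From day 7 it rose by a log2 fold change of 1.89 to day 14 (adjusted p = 0.0256 by edgeR), 1.72 to day 21 (adjusted p = 0.0115) and 1.71 to day 28 (adjusted p = 0.0106). The rise to day 14 was not called without day 14 replicate 1 (1.19, adjusted p = 0.474 by edgeR), day 7 replicate 2 (adjusted p = 0.0923) or day 7 replicate 3 (adjusted p = 0.0623). The rise to day 21 was not called without day 21 replicate 3 (adjusted p = 0.064). The day 21 call against day 0 was lost without day 0 replicate 2 (adjusted p = 0.066 by edgeR) and without day 21 replicate 1 (adjusted p = 0.0823), replicate 2 (adjusted p = 0.0643) or replicate 4 (adjusted p = 0.0566).

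**Figure D1:**
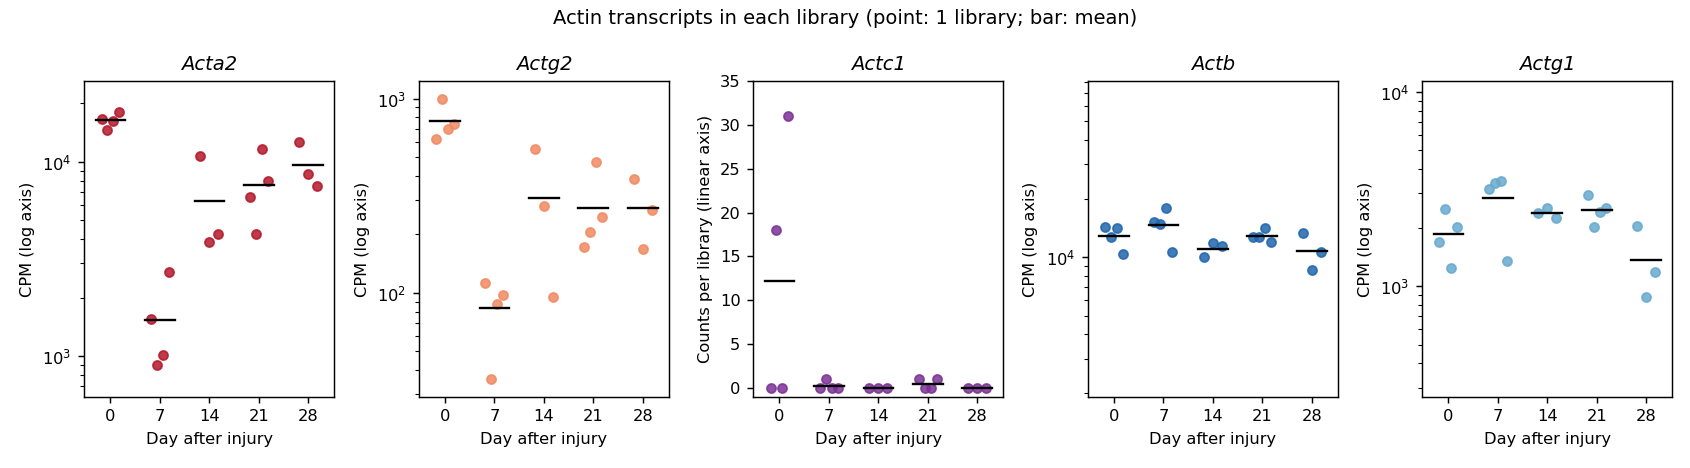
Level of each actin by day after injury. Each point is 1 library and each bar the mean of the day. The axes of Acta2, Actg2, Actb and Actg1 are CPM on a log scale of equal span, and Actc1 is shown as counts on a linear axis. Acta2 and Actg2 dip on day 7, while Actb stays between 8570 and 17935 CPM in all 18 libraries.

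Actc1, the cardiac alpha-actin, had counts in 5 of the 18 libraries. Day 0 replicate 2 held 18 counts (21.5 CPM) and day 0 replicate 4 held 31 counts (40.7 CPM), while the other 2 libraries of day 0 held 0. After injury the gene had 1 count each in day 7 replicate 2, day 21 replicate 1 and day 21 replicate 4. A count of 0 in a library allows up to 3 counts, between 3.91 and 6.06 CPM in the 13 libraries concerned, for counting error alone.

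The day 0 libraries thus differed from each other in Actc1 as much as they differed from the later days. When the low-count filter was omitted, edgeR gave adjusted p of 0.0358, 0.0387, 0.108 and 0.0733 for days 7, 14, 21 and 28 against day 0. DESeq2 gave 0.424, 0.528, 0.56 and 0.494 for the same days. No change of Actc1 is reported.

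Actc1 and its close relative Acta1, the skeletal alpha-actin, are known from striated muscle, so their counts were set beside 15 striated muscle markers that leave out the actins. The markers summed to 67 counts in day 7 replicate 2, 273 in day 14 replicate 2 and 242 in day 21 replicate 1, and to 17 or fewer in each of the others. Acta1 had 22, 61 and 133 counts in these 3 libraries, 6 in day 7 replicate 3, 2 in day 21 replicate 2 and 0 elsewhere. The 2 libraries that hold nearly all Actc1 counts, day 0 replicates 2 and 4, had 1 and 0 counts of the striated markers. Without the 3 libraries highest in these markers, Acta2 was still called lower on day 7, but no longer on day 14 (-1.17, adjusted p = 0.186 by edgeR) or day 21 (-1.07, adjusted p = 0.0752).

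Actb was among the 4 genes with the highest mean CPM on each of the 5 days, and its rank on day 7 was 2. Its libraries had 14313, 12672, 14172 and 10355 CPM on day 0 and 15219, 14786, 17935 and 10678 CPM on day 7. These ranges overlapped. They were followed by 9980 to 11750 CPM on day 14, 12016 to 14039 on day 21 and 8570 to 13258 on day 28.

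No comparison called Actb. The log2 fold change against day 0 was 0.19 on day 7 (95% interval -0.19 to 0.56, adjusted p = 0.56 by edgeR). It was -0.22 on day 14 (-0.63 to 0.19), -0.002 on day 21 (-0.38 to 0.38) and -0.25 on day 28 (-0.66 to 0.16). The intervals allow a rise of up to 0.56 on day 7 and a fall of up to 0.66 on day 28, and they exclude changes as large as those of Acta2 on day 7. Against day 7 the difference on day 28 was -0.44 (95% interval -0.85 to -0.03, adjusted p = 0.151 by edgeR), and this was called when day 7 replicate 4 was left out (-0.56, adjusted p = 0.0476).

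Actg1, the cytoplasmic gamma-actin, had 1679, 2502, 1242 and 2020 CPM on day 0. On day 7 it had 3154, 3416 and 3471 CPM in replicates 1 to 3, above every day 0 library, and 1353 CPM in replicate 4, within the day 0 range. The log2 fold change was 0.61 (95% interval 0.05 to 1.18, adjusted p = 0.129 by edgeR) and was not called. Without day 7 replicate 4 it was 0.84 (adjusted p = 0.0144 by edgeR), which passed.

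Later levels of Actg1 were 2387, 2524 and 2244 CPM on day 14, and 2963, 2006, 2417 and 2536 CPM on day 21. On day 28 they were 2032, 883.1 and 1176 CPM, and no library reached the lowest of day 14. Against day 0, the log2 fold changes were 0.36 for day 14, 0.41 for day 21 and -0.45 for day 28, and edgeR called none of them (adjusted p = 0.645, 0.415 and 0.511). Against day 7, Actg1 was lower by day 28, with a log2 difference of -1.06 and a standard error of 0.30 (adjusted p = 0.02 by edgeR). That call was lost in 5 of the 18 fits without 1 library, with an adjusted p of up to 0.12, and without the 3 libraries highest in striated muscle markers (-0.93, adjusted p = 0.0794).

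Reads of the 5 genes could be told apart to differing degrees. Of the 326 windows of 75 bases, the read length, in the last 400 bases of each reference transcript, none of Acta2, Actg2, Actc1 or Actb occurred in a transcript of another gene. For Actg1, 251 of 326 also occurred in Gm70496, a non-coding gene on chromosome 4. How far this affects the Actg1 counts is not known, since the annotation used in counting is not given. On GRCm39 all 5 genes lie on the minus strand, with Acta2 at chr19:34217737-34232990, Actg2 at chr6:83489887-83513551 and Actc1 at chr2:113876266-113884043. Actb lies at chr5:142888870-142892509 and Actg1 at chr11:120236512-120239617. Acta2 overlaps Stambpl1 on the other strand, which had 0 to 7 counts per library. Actg1 overlaps 0610009L18Rik on the other strand and Gm55891 and Mir6935 on its own, and Actc1 overlaps Gjd2os on the other strand. The use of the strand in counting is not given in the sources used here.

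**Figure D2:**
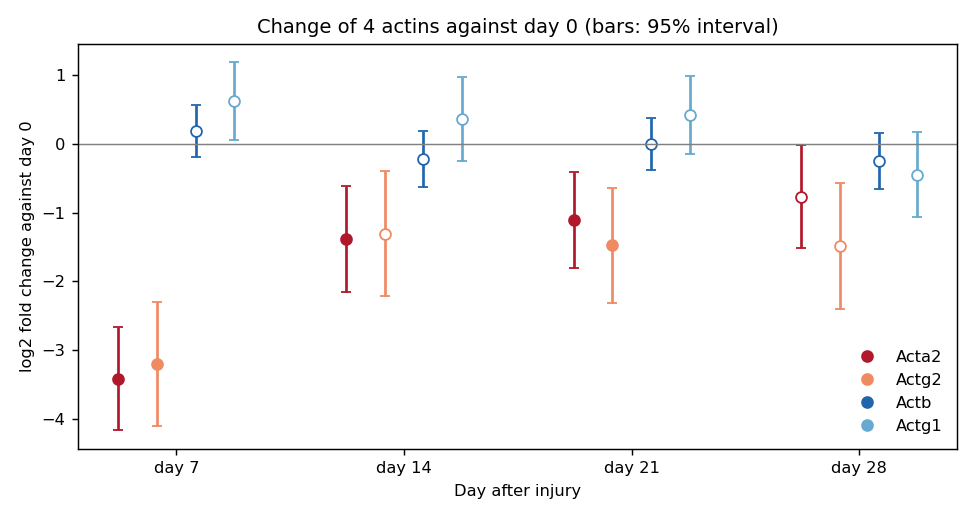
Log2 fold change of 4 actins against day 0, by day after injury. Filled circles are called at an adjusted p under 0.05 by edgeR, open circles are not, and bars are 95% intervals. Acta2 and Actg2 lie below 0 on every day, and the intervals of Actb include 0 on every day.

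Read against the background, 2 of the 4 tested actins were called on day 7, both lower, where 19.8% of all tested genes were called. On day 14 it was 1 of 4 with a background of 6.22%, on day 21 2 of 4 with 8.84%, and on day 28 none of 4 with 1.34%, by edgeR. On day 28 the unadjusted p of Acta2 (0.0458) and Actg2 (0.00261) were under 0.05, and DESeq2 called Actg2. Against day 7, 2 of 4 rose by day 14 with a background of 1.66%, 2 of 4 rose by day 21 with 7.26%, and by day 28 2 rose and 1 fell with 14.4%.

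The balance between muscle and cytoplasmic actin was read from the counts within each library, where scaling between libraries plays no part. Muscle actins made up 51.89%, 50.77%, 52.32% and 60.24% of the actin counts on day 0. On day 7 their share was 8.29%, 4.87%, 4.87% and 18.8%, and it was 47.58%, 22.54% and 24.1% on day 14. It was 30.12%, 23.1%, 42.31% and 36.01% on day 21 and 45.99%, 48.26% and 39.93% on day 28. All later libraries were below all day 0 libraries, and all libraries of days 14 to 28 were above all of day 7. These shares are described without a test.

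Day 0 had a mean muscle share of 53.8% ± 4.34 (SD, n = 4), and day 7 one of 9.22% ± 6.61 (SD, n = 4). The means then were 31.4% ± 14.0 (SD, n = 3) for day 14, 32.9% ± 8.20 (SD, n = 4) for day 21 and 44.7% ± 4.30 (SD, n = 3) for day 28. Without day 7 replicate 4 the day 7 mean was 6.01%. Days 14 and 21 overlapped each other, and each of them overlapped day 28.

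**Figure D3:**
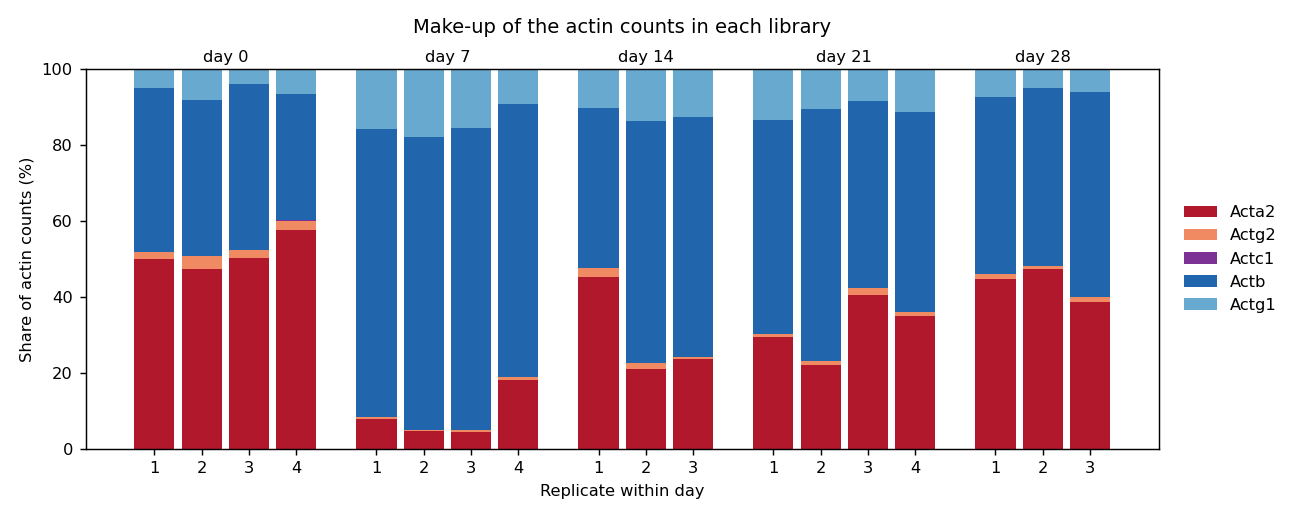
Share of each actin in the summed counts of the 5 actins, with 1 stacked bar per library, grouped by day. The muscle actins (lower segments) fill over 50% of each day 0 bar and under 20% of each day 7 bar, and Actc1 is too rare to be seen.

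Most of the muscle share was Acta2. Its part of the actin counts went from 51.4% ± 4.43 to 8.77% ± 6.45 between days 0 and 7 (SD, n = 4 each), and that of Actg2 from 2.41% ± 0.59 to 0.448% ± 0.205. Actb went from 40.3% ± 4.84 to 76.3% ± 3.20 of actin counts, although its CPM was not called different. Actg1 went from 5.88% ± 1.85 to 14.5% ± 3.76.

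The order of the actins changed with the day. Acta2 had more counts than Actb in 4 of 4 libraries on day 0 and in none on day 7, with 0.794 ± 0.145 and 12.02 ± 6.41 counts of Actb per count of Acta2 (SD, n = 4 each). On day 7 even Actg1 had more counts than Acta2 in 3 of 4 libraries, replicate 4 being the exception. Acta2 was above Actb in 1 of 3 libraries on day 14, 0 of 4 on day 21 and 1 of 3 on day 28. Actg2 was below Actg1 and Actb in every library.

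Together the 5 actins made up 3.08% ± 0.12 of all counts on day 0 (SD, n = 4). For the days after injury the values were 1.92% ± 0.41 (day 7), 1.93% ± 0.22 (day 14), 2.25% ± 0.33 (day 21) and 2.27% ± 0.40 (day 28). The highest library after injury, at 2.73% on day 28, was below the lowest of day 0, at 2.96%.

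Ratios were also taken within each class. Actg2 per 100 counts of Acta2 was 4.74 ± 1.40 before injury and 5.89 ± 2.48 at day 7 (SD, n = 4 each), then 4.89, 3.67 and 2.83 on days 14, 21 and 28, with the ranges of day 0 and day 7 overlapping and every day 28 library, at most 3.51, below every day 0 library, at least 3.72. Actg1 per 100 counts of Actb was 14.9 ± 5.55 before injury and, in the order of the later days, 19.0 ± 4.47, 21.7 ± 2.10, 19.4 ± 3.53 and 12.3 ± 2.70 (SD). Its day 28 libraries reached at most 15.3, below the lowest of day 14 at 19.7.

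Between days 0 and 7 the smooth muscle markers fell along with the share, and the macrophage markers rose. The sum of 10 smooth muscle markers without actins was 25632 to 29399 CPM on day 0, 999.1 to 5650 on day 7, 4955 to 17469 on day 14, 5875 to 13904 on day 21 and 18852 to 21681 on day 28. On day 7, when 19.8% of all tested genes were called, all 10 were called lower, with a median log2 fold change of -3.46. The sum of 12 macrophage markers was 135.1 to 531.5 CPM on day 0, 4977 to 7068 on day 7, 1275 to 2937 on day 14, 1868 to 3326 on day 21 and 861.6 to 1182 on day 28, and all 12 were called higher on day 7. Each marker of both lists had counts on every day.

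On days 7, 14 and 21 the smooth muscle sum and the share peaked in the same library, while on days 0 and 28 they did not. On day 0 the sum was highest in replicate 1 and the share in replicate 4, and on day 28 the sum was highest in replicate 1 and the share in replicate 2. Day 7 replicate 4 had the highest smooth muscle sum of its day (5650 CPM), the highest muscle share, the lowest Actg1 and the lowest Actb. Day 14 replicate 1 had 17469 CPM of smooth muscle markers, against 4955 and 5890 CPM in replicates 2 and 3, and its muscle share of 47.58% was also the highest of that day. The part of cell mixture in the actin changes was not tested.

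**Figure D4:**
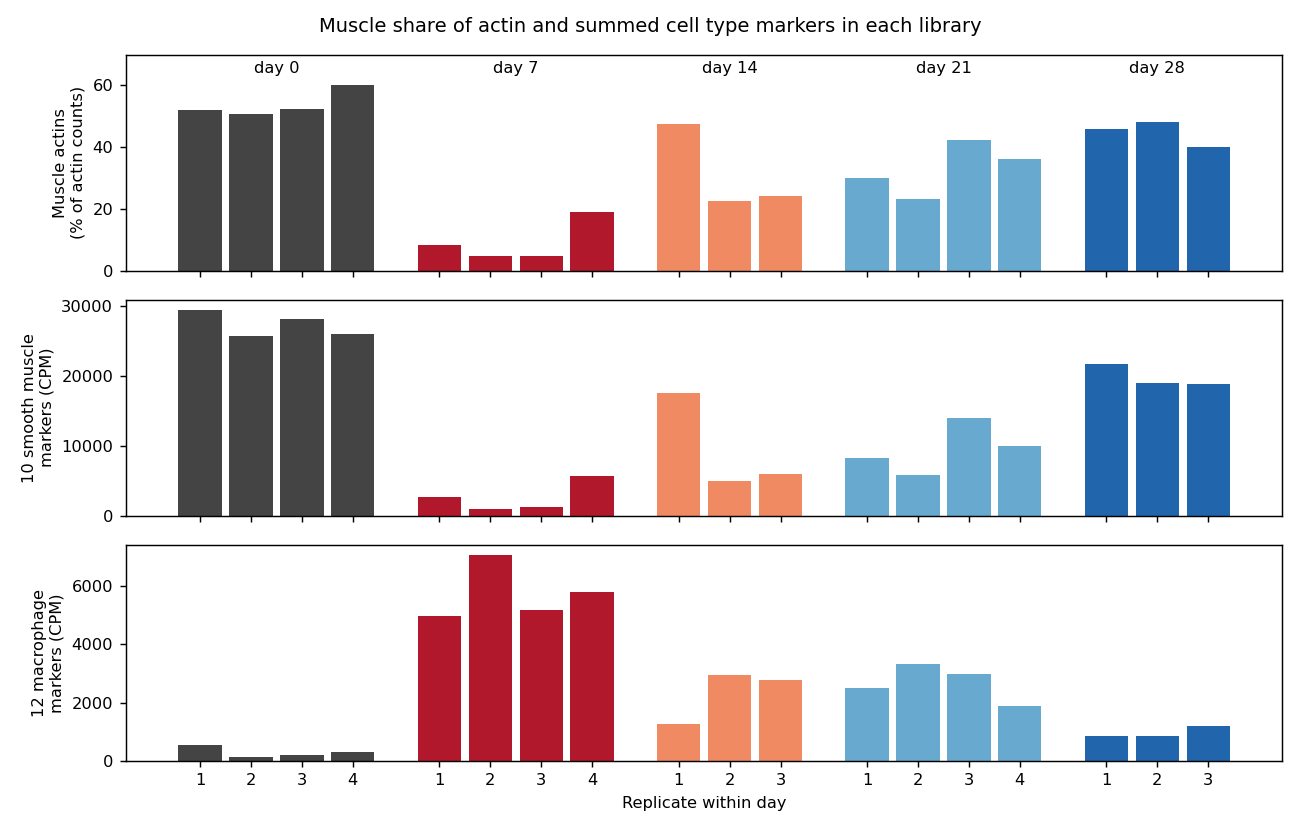
Muscle share of the actin counts (top), summed CPM of 10 smooth muscle markers (middle) and summed CPM of 12 macrophage markers (bottom) in each library, grouped by day. By the mean of each day, the top and middle panels are lowest on day 7, where the bottom panel is highest. In the middle panel, day 7 replicate 4 (5650 CPM) stands above day 14 replicate 2 (4955 CPM).

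Acta2 was also set against the 10 smooth muscle markers of the same library, all of which were called lower on day 7. It had 60.2 ± 6.09 counts per 100 marker counts on day 0 (SD, n = 4). On day 7 the 4 libraries had 57.69, 89.57, 80.45 and 47.69, a spread that took in all of day 0. On day 21 the values were 79.8, 71.93, 83.39 and 79.43, each above the highest of day 0 at 69.28. On day 28 they were 58.27, 45.64 and 40.06. This ratio was chosen after the values were seen and is given without a test. Since the markers fell along with Acta2, it cannot tell fewer smooth muscle cells from less Acta2 RNA in each cell.

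Marker lists of other cell types were read in the same way, beside the 19.8% of all tested genes called on day 7. Of 8 fibroblast markers, 2 were called higher and 4 lower on day 7, and their sum was 1310 to 2550 CPM on day 0 and 755.5 to 2009 on day 7. Of 10 endothelial markers, 4 were called higher and 1 lower, with sums of 787.6 to 1333 and 845.8 to 2584 CPM. Of 8 neutrophil markers, 4 could be tested and all 4 were called higher on day 7. Of these 4, 3 had at most 3 counts in each day 0 library, which left them hardly any room to fall. Ly6g, Camp and Ngp had no count on day 7, and Ly6g was also at 0 on days 0, 21 and 28.

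Actin filaments are built, cut, bundled and recycled by other proteins, of which 81 genes were listed in 7 groups. Of these 75 were tested. On day 7, 32 of them (42.7%) were called, 20 higher and 12 lower, beside 19.8% of all tested genes. The numbers were 13 (17.3%) on day 14, 16 (21.3%) on day 21 and 2 (2.67%) on day 28, beside 6.22%, 8.84% and 1.34%. The median log2 fold change on day 7 was 0.39, and 0.07 over all tested genes. Since the groups were chosen with earlier results of these data known, their excess of calls over all genes is not a test. The day 14 number fell to 3 without day 14 replicate 2 and to 7 without day 14 replicate 3, and the day 28 number rose to 9 when replicate 1 of that day was left out and fell to 1 when its replicate 3, or day 0 replicate 4, was left out.

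**Figure D5:**
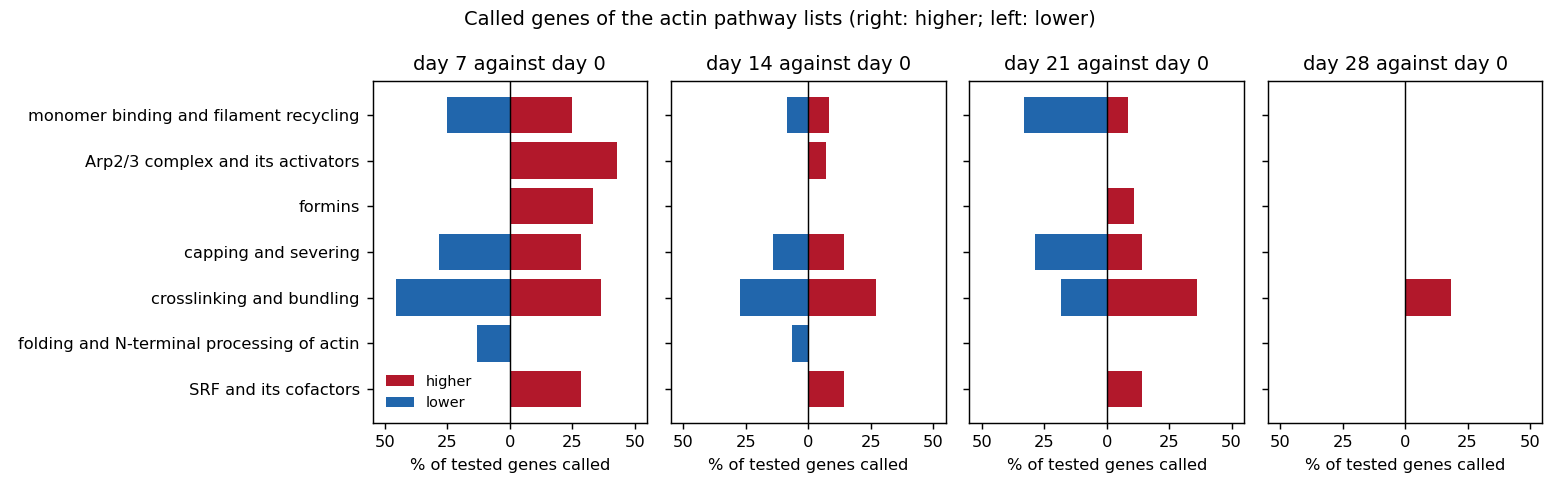
Share of the tested genes of each actin pathway group that was called higher (right) or lower (left) against day 0, by day. The Arp2/3, formin and SRF groups held higher but no lower calls on day 7, and 1 group holds calls on day 28. The formins called on day 7 had day 0 means under the level of 3 counts per library.

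Proteins that bind actin monomers and recycle filaments went both ways. On day 7, 3 of 12 were called higher and 3 lower (50%, beside 19.8% of all tested genes). Dstn, the depolymerising factor destrin, fell between days 0 and 7 from 4360 ± 235 to 609.3 ± 216.2 CPM (SD, n = 4 each, log2 fold change -2.84, adjusted p = 1.67e-06 by edgeR) and was at 2902 ± 372.9 on day 28 (SD, n = 3). Cfl1, the related cofilin of non-muscle cells, rose from 712.3 ± 136.3 to 1596 ± 364.6 CPM on day 7 (1.16, adjusted p = 0.000166). Tmsb10, a thymosin that holds actin monomers, rose from 169.2 ± 12.5 to 805.5 ± 265.4 CPM (2.25, adjusted p = 8.74e-06). Cap2, a cyclase-associated protein, fell on day 7 (-3.15, adjusted p = 0.00182), and its relative Cap1 was called lower on day 21 alone among the days against day 0 (-1.04, adjusted p = 0.00736).

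Branched networks are started by the Arp2/3 complex. Of 14 genes of this complex and its activators, 6 were called higher on day 7 (42.9%) and none lower, by edgeR. On day 14 it was 1 (7.14%), and the shares over all tested genes were 19.8% and 6.22%. Arpc5, a subunit of the complex, went from 61.3 ± 24.9 to 203.3 ± 27.6 CPM (log2 fold change 1.73, adjusted p = 0.000748) and was also called on day 14 (1.57, adjusted p = 0.00866). Arpc1b, another subunit, went from 495.5 ± 115 to 956 ± 98.4 CPM (0.95, adjusted p = 0.00165). Of 9 tested formins, which extend unbranched filaments, 3 were called higher on day 7 (33.3%). Fmnl1, a formin of blood cells, was at 0.984 CPM on day 0 and 27.8 ± 3.92 on day 7, and Diaph3 at 1.2 and 21.0 ± 1.52. The day 0 means of all 3 called formins lay under the level of 3 counts per library, so that a fall could hardly have been called. Fmnl3 was called higher on day 21 (1.08, adjusted p = 0.02).

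Among capping and severing proteins, 2 of 7 tested genes were called higher and 2 lower on day 7 (57.1%, beside 19.8% of all tested genes). Gsn, gelsolin, fell from 1465 ± 279.9 to 291.4 ± 73.7 CPM (log2 fold change -2.33, adjusted p = 3.47e-06 by edgeR), and Svil, supervillin, from 167.2 ± 22.3 to 27.4 ± 11.6 CPM (-2.60, adjusted p = 1.19e-05). Capg, a gelsolin relative known from macrophages, rose from 73.3 ± 43.7 to 419.6 ± 69.6 CPM (2.52, adjusted p = 1.11e-05). Capza2, a subunit of capping protein, rose from 147.2 ± 21.4 to 231.4 ± 45.9 CPM (0.65, adjusted p = 0.0426).

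Crosslinking and bundling proteins had 4 of 11 tested genes called higher and 5 lower on day 7 (81.8%, beside 19.8% of all tested genes). Flna, filamin A, fell from 6882 ± 1148 to 1408 ± 678.5 CPM (log2 fold change -2.29, adjusted p = 4.97e-06 by edgeR), and Actn4, an alpha-actinin, from 1432 ± 70.8 to 567.9 ± 140.1 (-1.33, adjusted p = 8.17e-05). Coro1a and Lcp1, which are leukocyte proteins, rose from 6.16 ± 5.51 to 262.3 ± 38.9 CPM (5.37, adjusted p = 9.45e-08) and from 15.2 ± 9.02 to 274.6 ± 119.8 CPM (4.19, adjusted p = 7.6e-07). These were also the 2 genes called on day 28, at 55.6 and 78.2 CPM. Fscn1, the bundling protein fascin, had no count on day 0 and 117.6 ± 73.9 CPM on day 7, at least 26.3-fold higher than 3 counts per library would give. Coro1c was called lower on day 21 (-0.89, adjusted p = 0.017).

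Newly made actin is folded by chaperones and then trimmed and acetylated. Of 15 tested genes for these steps, 2 were called on day 7 (13.3%, beside 19.8% of all tested genes), both lower. The group median was 0.29 on the log2 scale. Naa80, which acetylates the start of actin, fell from 167.2 ± 29.5 to 32.9 ± 19.2 CPM (log2 fold change -2.33, adjusted p = 0.000166 by edgeR), and Pfdn5, a prefoldin subunit, from 560.2 ± 112.5 to 358.6 ± 20.4 (-0.64, adjusted p = 0.0326). For SRF and its cofactors 8 genes were listed and 7 were tested, and myocardin itself was not among those tested. Of the 7, 2 were called higher on day 7 (28.6%) and none lower. They were Elk3, from 32.7 ± 13.1 to 114.1 ± 12.01 CPM (1.79, adjusted p = 0.000222), and Mrtfa, from 34.96 ± 4.58 to 66.5 ± 13.9 CPM (0.92, adjusted p = 0.0461). Srf itself had 38.7 ± 34.3 CPM on day 0 and 20.3 ± 13.95 on day 7 and was not called (-0.94, adjusted p = 0.36 by edgeR). Elk1, Elk4, Fhl2 and Mrtfb, with estimates above 0, were not called either. Elk3 is known to compete with the myocardin family at SRF, and Mrtfa is a member of that family.

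The genes whose level followed each actin most closely over the 18 libraries were found by Pearson's r of log2 CPM. The tested actins were left out of the candidates, so none of them could appear in a list. The points include the differences between days and share the depth of each library, and no p is given. For Acta2 they were Cnn1 (0.986), Lims2 (0.978), Myl9 (0.976), Myh11 (0.975) and Fbxl22 (0.971). For Actg2 they were Cnn1 (0.918), Fbxl22 (0.911), Sntb1 (0.903), Dstn (0.898) and Ppp1r14a (0.898), so that Cnn1 and Fbxl22 appear for both muscle actins.

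The cytoplasmic actins had no gene in common with these. Actb was closest to Plec (0.823), Gm29666 (0.775), Snrpe (0.774), Ipo9 (0.769) and Eif2s1 (0.768). Actg1 was closest to Timm23 (0.884), Cdc42 (0.868), Clns1a (0.867), Tfdp1 (0.864) and Rgs12 (0.863).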

How the data were processed

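RNA from laser-dissected carotid tissue was measured in 18 libraries by MACE with 75-base reads. The authors used molecular identifiers to remove PCR duplicates, ran Salmon 1.9.0 against mm39 and deposited estimated counts per gene as whole numbers. The authors also deposited a normalised signal made with DESeq2 1.36.0, whose factor per library was shared by every value of Acta2, Actg2, Actc1 and Actb, while Actg1 carried a further factor of 0.924 to 1. It was used in alternatives alone. The annotation release is not given in the sources used here.

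The day in each label gave the groups. Estimated counts were fitted with edgeR 4.0.16 in R 4.3.3 (filterByExpr, TMM, quasi-likelihood test, day as the only term, Benjamini-Hochberg adjustment over 10312 genes, threshold 0.05), and DESeq2 1.42.0 was an alternative. Log2 CPM used a prior count of 2. The steps were tested on simulated data. Replicate numbers were not used as pairs in the main fit. The median correlation of residuals over 33 pairs of the same replicate number was -0.0057 (-0.13 to 0.20). It was -0.0067 to 0.055 over the 3 pairs of a day 0 and a day 21 library that share a number in the description. Pairs of unlike number were not set beside these, so the correlations cannot exclude pairing.

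The actins, the pathway groups and the marker lists were chosen with earlier results of these data known. The named pathway genes are, per group and day against day 0, in either direction the 2 called genes of lowest p. The genes most like an actin are the 5 with the highest r after the tested actins were left out. Alternatives changed the tool, scaling, filter, libraries and blocks. Actmap was not matched by symbol.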

Additional observations from a re-analysis of the deposited data

Results flagged for a closer look

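Of 18 sets of 4 libraries examined (each actin and the muscle share, on days 0, 7 and 21), 2 held a library far from the others, where chance gives about 1 in 20, and another met the same rule by construction. In that one Actc1 had 1.797 CPM, a single count, in day 7 replicate 2 and none in the other 3 libraries, and any single count beside zeros meets it. Actg1 had 1353 CPM in day 7 replicate 4, against 3154 to 3471 in the others. The muscle share of the actin counts was 60.24% in day 0 replicate 4, against 50.77% to 52.32%.

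The change against day 0 differed between day 7 and later days for 3 actins, tested as the difference itself by edgeR. For Acta2 the log2 difference from day 7 was 2.025 on day 14, 2.301 on day 21 and 2.644 on day 28. For Actg2 it was 1.888, 1.717 and 1.71. For Actg1 it was -1.062 on day 28.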

How the results depend on the processing

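No alternative turned the direction of a called difference, and of 760 alternatives for the actins 718 kept the side of the threshold, 32 lost a call and 10 gained one. The mean muscle share with 1 library left out was 6.013% to 10.67% on day 7, 23.32% to 35.84% on day 14 and 29.75% to 36.15% on day 21. With a replicate block no call of an actin changed (Acta2 on day 7, -3.533, and Actg2, -3.287, adjusted p = 2.55e-07 and 2.11e-05 by edgeR), and pathway calls were 28, 11, 17 and 2 on days 7, 14, 21 and 28. With the number in the description as a block, in a fit of days 0 and 21 alone, pathway calls on day 21 were 20. Actg2 on day 14 was called by DESeq2 (-1.312) and with no filter (-1.289), and on day 28 by DESeq2 (-1.476), with no filter (-1.493) and with only the 2 days compared (-1.46). With only the 2 days compared, Acta2 on day 28 was called (-0.7424), while the differences from day 7 were not for Acta2 and Actg2 on day 14 (2.058 and 1.922) and Actg1 on day 28 (-1.01), and edgeR called 0 pathway genes on day 28 in place of 2. DESeq2 fitted over all days called 4.

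Without the 3 libraries highest in striated muscle markers, a choice made after seeing the data, calls were lost for Acta2 on days 14 (-1.167) and 21 (-1.071), Actg2 on day 21 (-1.329), Actg2 on day 14 against day 7 (1.709) and Actg1 on day 28 against day 7 (-0.9317), and pathway calls on day 14 were 3. This leaves fewer libraries to fit. Pathway calls on day 7 ranged from 23 to 32 over all alternatives.

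With 1 library left out at a time, log2 fold changes against day 0 ranged from 0.4633 to 0.8378 for Actg1 on day 7, -2.007 to -1.154 and -2.025 to -0.8935 for Acta2 and Actg2 on day 14, -1.416 to -0.936 and -1.907 to -1.304 on day 21, and -1.81 to -1.231 for Actg2 on day 28. Against day 7 they ranged from 1.416 to 2.442 and 1.185 to 2.315 for Acta2 and Actg2 on day 14, 1.334 to 1.921 for Actg2 on day 21, and -0.5804 to -0.2971 and -1.433 to -0.8318 for Actb and Actg1 on day 28. Pathway calls ranged from 3 to 18 on day 14 and 1 to 9 on day 28. The cause of these shifts was not tested.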
